A study of Mus musculus with 8 samples.

Results

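The potassium channel genes were taken as all protein-coding genes of GENCODE M21 whose symbol begins with Kcn, which gave 94 genes on 19 chromosomes out of 21938 protein-coding genes. Potassium channels are membrane pores that let potassium leave or enter the cell, and they set the resting potential, end the action potential and tune the firing rate. Pore-forming subunits are grouped by structure and gate into voltage-gated, inward-rectifier, two-pore and ion-activated channels, and auxiliary subunits bind the pores and change their gating or transport. Dopaminergic neurons of the substantia nigra use several of them for pacemaking, among them the small-conductance calcium-activated channels (Kcnn genes), fast A-type channels (Kcnd genes with Kcnip partners) and the ATP-sensitive channel (Kcnj11 with Abcc8).

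Open chromatin was measured by ATAC-seq in SN4741, a clonal mouse line of embryonic nigral origin in which the Th promoter drives a temperature-sensitive SV40 T antigen. It is labelled wild type and as neural precursor cells. The 4 libraries at 37 °C came from cells dividing in 10% serum, and the 4 libraries at 39 °C came from cells held for 48 h at the temperature at which the T antigen is less active, in 0.5% serum, so temperature and serum cannot be told apart. Each library started from 50000 cells and 12 PCR cycles. The line has an unstable, aneuploid karyotype by the study's own account, and nothing in the labels says that the libraries came from separate cultures, so p-values measure the spread between libraries. The peak caller kept 49.8 to 169 M fragments per library, and the lists held 54845 to 92013 peaks, with means of 81844 at 37 °C and 63551 at 39 °C. The lists were longer at 37 °C, and the main counts of members are set beside the share of all coding genes or regions called by the same rule.

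The labelled cell type was checked against marker promoters. A peak lay within 1 kb of a start in all 8 libraries for 4 of 8 neural precursor markers (Pax6, Sox2, Nes, Msi1), for 5 of 8 neuron markers (Snap25, Stmn2, Tubb3, Elavl3, Rbfox3) and for 7 of 8 mesenchymal markers (Prrx1, Vim, Pdgfra, Col1a2, Col1a1, Twist1, Pdgfrb). The defining markers Fabp7, Dcx and Elavl4 had no promoter peak in any library. Open chromatin at a promoter does not show that the gene was transcribed.

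Fewer potassium channel promoters were open than coding promoters in general. A peak within 1 kb of any annotated start was called in all 8 libraries for 40 of the 94 genes (42.6%), against 59.9% of all coding genes, and in no library for 37 (39.4%), against 31.3%. The remaining 17 had a peak in 1 to 7 libraries. With at least 2 libraries required at each temperature, 46 genes (48.9%) were open at both, against 62.7% of coding genes. Voltage-gated sodium and calcium channel genes (Scn and Cacn, 40 genes) had 19 promoters open in all 8 libraries and 13 in none.

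The channel families differed in how many of their promoters were open. Of 40 voltage-gated pore genes, 17 were open in all 8 libraries and 14 in none. Kcnc1, Kcnc2 and Kcnc4, whose Kv3 channels allow fast repetitive firing, were open in every library. The Kcnh family, which holds the EAG, ERG and ELK channels, had 5 of 8 open (Kcnh1, Kcnh2, Kcnh3, Kcnh4, Kcnh6), with Kcnh5 called in part and Kcnh7 and Kcnh8 closed. In the Kcna family of Shaker-type channels, Kcna4 and Kcna7 were open, Kcna3 was called in part, and Kcna1, Kcna2, Kcna5, Kcna6 and Kcna10 were closed. Kcnd1, Kcnf1, Kcng3 and Kcns2 were open, and Kcnd3, Kcng1, Kcng2, Kcng4, Kcnq1 and Kcnq5 were called in some libraries. Closed voltage-gated genes were Kcnb2, Kcnd2, Kcnq3, Kcns1, Kcns3, Kcnv1 and Kcnv2 besides those of Kcna and Kcnh.

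Of 17 auxiliary subunit genes, 7 were open in all 8 libraries and 9 in none. All 3 cytoplasmic beta subunits of Shaker channels (Kcnab1, Kcnab2, Kcnab3) were open, with Kcnip2 and Kcnip3, which bind Kv4 channels, Kcnmb4, a beta subunit of the large-conductance calcium-activated channel, and Kcne3. Kcne1, Kcne1l, Kcne2, Kcne4, Kcnip1, Kcnip4, Kcnmb1, Kcnmb2 and Kcnmb3 were closed, and Kcnrg had a peak in 1 library. Inward rectifiers, which hold the membrane near rest, were mostly closed: 3 of 15 were open (Kcnj2, Kcnj4, Kcnj12), Kcnj10, Kcnj11 and Kcnj14 were called in part, and 9 were closed (Kcnj1, Kcnj3, Kcnj5, Kcnj6, Kcnj8, Kcnj9, Kcnj13, Kcnj15, Kcnj16). Kcnj6, which encodes the GIRK2 channel of dopaminergic neurons, was among the closed genes. Of 14 two-pore leak channel genes, 8 were open (Kcnk2, Kcnk3, Kcnk4, Kcnk5, Kcnk7, Kcnk10, Kcnk12, Kcnk13), Kcnk6 and Kcnk15 were called in part, and Kcnk1, Kcnk9, Kcnk16 and Kcnk18 were closed. Among 8 ion-activated genes, all 4 calcium-activated Kcnn genes (Kcnn1, Kcnn2, Kcnn3, Kcnn4) and the sodium-activated Kcnt1 were open, Kcnma1 and Kcnt2 were called in part, and Kcnu1 was closed.

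**Figure D1:**
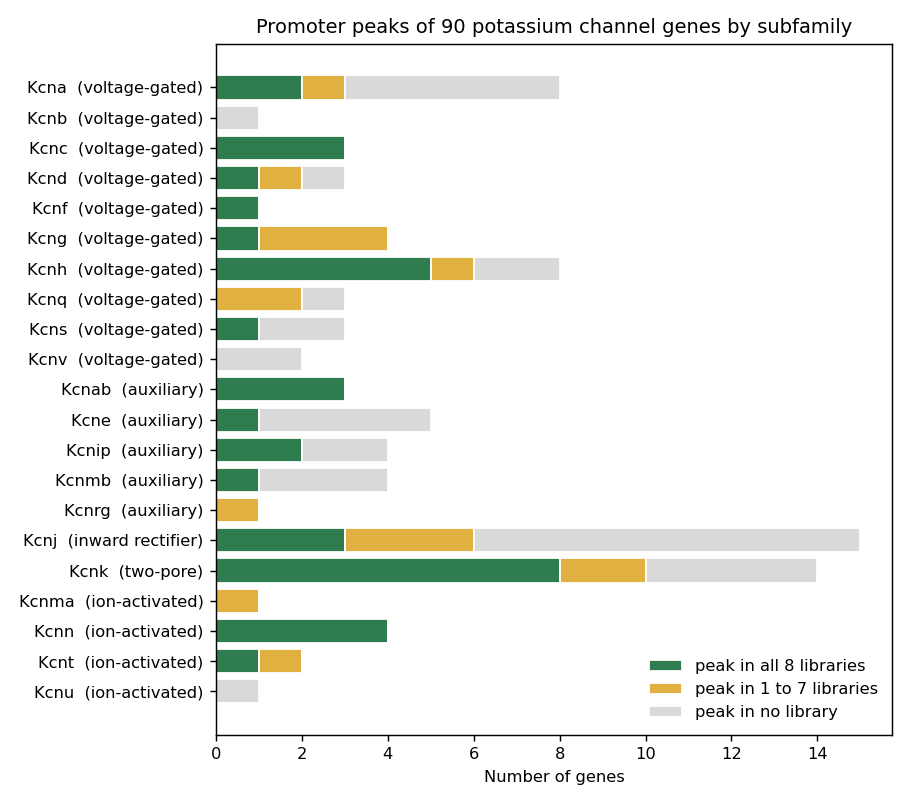
Number of genes (x axis, 90 of the 94) in each Kcn subfamily (y axis, class in brackets), split by whether a peak lay within 1 kb of a start in all 8 libraries (green), in 1 to 7 (yellow) or in none (grey). Kcnc, Kcnab and Kcnn were green throughout, and Kcnj had 9 of 15 genes in grey.

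The strongest promoters belonged to several classes. The height of a peak is given as the percentile of its −log10 q value within its own library's list, where 100 is the highest peak. Kcnn1, which encodes a small-conductance calcium-activated channel, had percentiles of 94.2, 94.2, 95.5 and 95.0 at 37 °C and 92.1, 90.1, 93.4 and 92.4 at 39 °C. Kcnab2 had 89.9, 90.4, 90.2 and 91.6 at 37 °C and 88.8, 88.0, 88.9 and 85.3 at 39 °C. Kcnj2, the main inward rectifier of muscle and many neurons, had 90.0, 89.5, 89.5 and 90.9 at 37 °C and 87.6, 86.8, 87.5 and 85.4 at 39 °C. Kcnab3, described below, and Kcnip3 completed the highest 5, with means over 8 libraries of 89.6 and 84.9. Kcnip3, also known as the transcriptional repressor DREAM, had 87.2, 86.8, 86.5 and 88.0 at 37 °C and 83.9, 82.9, 82.2 and 81.4 at 39 °C. These peaks were not all private to the channel gene. Kcnab2 shared its start region with Nphp4, the merged region at Kcnn1 also lay within 1 kb of the start of Ccdc124, and that at Kcnab3 lay within 1 kb of the starts of Cntrob and Trappc1.

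All 17 partly called promoters were called in more libraries at 37 °C than at 39 °C (18.1% of 94 genes, against 7.97% of coding genes), and none in more libraries at 39 °C (0.47% of coding genes). Of 1920 partly called coding promoters, 1748 were called in more libraries at 37 °C and 103 in more at 39 °C. The lean to 37 °C was thus common to partly called promoters in general. No member was called in 4 libraries at one temperature and 0 at the other (1.46% of coding genes in favour of 37 °C and 0.0137% in favour of 39 °C). Per library, 54, 53, 50 and 55 potassium channel promoters were called at 37 °C and 46, 43, 48 and 41 at 39 °C, a mean of 53 ± 2.16 against 44.5 ± 3.11 (SD, n = 4), and the groups did not overlap. Over all coding genes the mean share of promoters called was 66.4% at 37 °C and 62.2% at 39 °C.

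The partly called promoters lay low in the lists. Kcng1, a silent subunit that modifies Kv2 channels, had percentiles of 36.2, 34.1, 41.2 and 36.7 in the 4 libraries at 37 °C and 10.8 in 1 library at 39 °C. Kcnj14 had 45.3, 20.1, 33.8 and 48.9 at 37 °C and 9.62 in 1 library at 39 °C. Kcnt2, a sodium-activated channel, had 23.7, 4.15 and 16.2 in 3 libraries at 37 °C and no peak at 39 °C. Kcng2, another silent subunit, and Kcnq1, a slow delayed rectifier of heart and epithelia, were also called in 3 libraries against 0, at 5.55, 16.1 and 10.4 for Kcng2 and at 5.55, 6.36 and 5.13 for Kcnq1. Kcnj11, the pore of the ATP-sensitive channel, had 41.2, 39.4, 35.8 and 50.5 at 37 °C, and 14.1, 9.99 and 28.8 in 3 libraries at 39 °C. Kcnk6 was the exception in height: it had 74.0, 69.9, 32.7 and 73.7 at 37 °C and 67.8, 67.2 and 57.5 at 39 °C, with no peak in the third library at 39 °C.

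**Figure D2:**
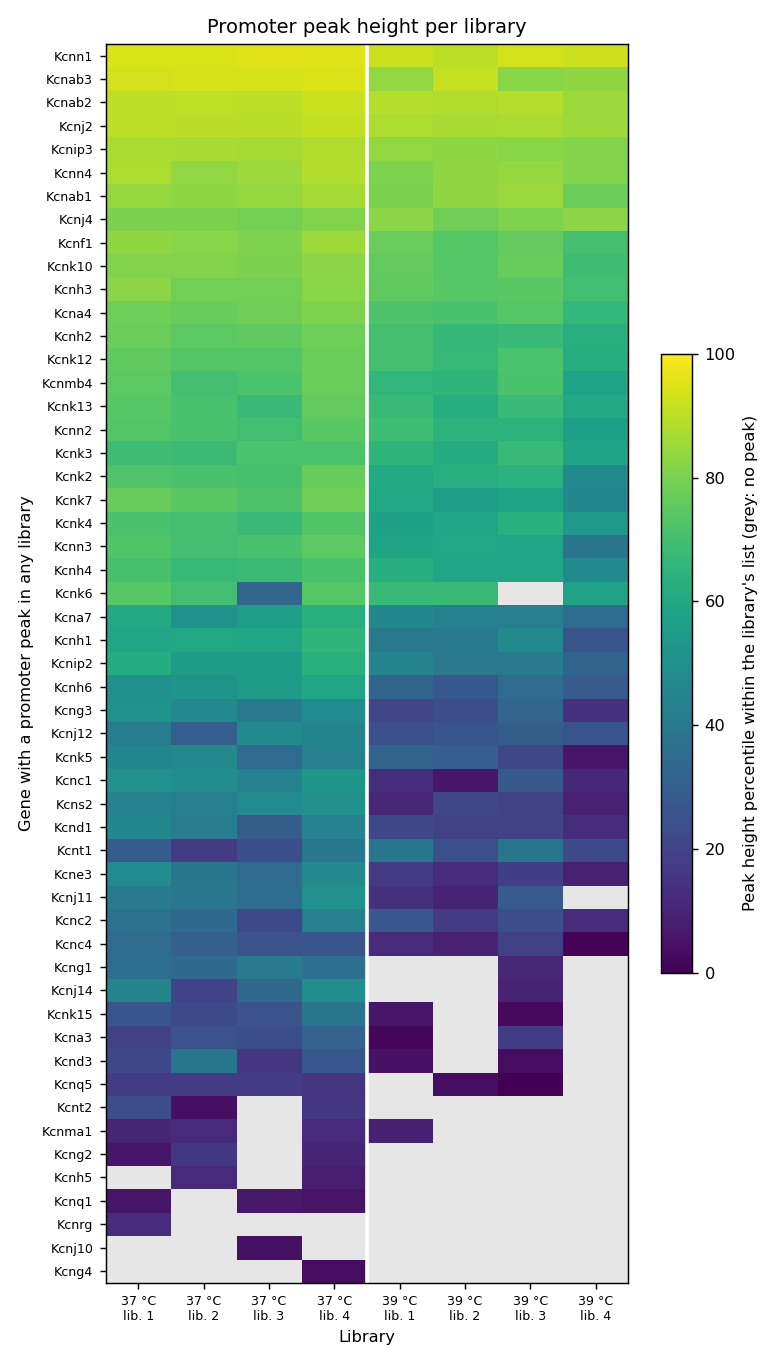
Promoter peak height for 53 genes with a promoter peak in any library (rows, ordered by mean), as the percentile within each library's list (colour), in 4 libraries at 37 °C and 4 at 39 °C (columns), with grey where no peak was called. The grey cells lie mostly in the lower rows and at 39 °C, with Kcnk6 an exception higher up, and the 8 top rows stay above 77 in every library.

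Most open potassium channel promoters ranked lower in the list at 39 °C. Over the 40 promoters with a peak in all 8 libraries, the median percentile was 71.4 at 37 °C and 57.6 at 39 °C, and over all 13145 such coding promoters it was 91.4 and 88.6. All 4 values at 37 °C lay above all 4 at 39 °C for 34 of the 40 members (52.4% of coding promoters), and the reverse held for 0 (0.51%). The heights were then tested with limma on the log2 odds of the percentile, centred on the median coding promoter of each library, with Benjamini-Hochberg adjustment over the 13145 promoters. Of the 40, 19 were lower at 39 °C (47.5%, against 16.3% of all tested) and 1 was higher (2.5%, against 7.71%). Without the centring, where the median coding promoter stood at -0.46, 36 members were lower (61.1% of all tested) and 0 higher (0.555%).

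The number of lowered promoters depended on how the heights were scaled. When the tested promoters were ranked only against each other, 4 of 40 were lower (Kcnab3, Kcnf1 and Kcnk7 among them, against 8.38% of all tested) and 2 higher (Kcnj4 and Kcnt1, against 9.7%). With every list cut to the same number of peaks, 8 of 33 were lower (11.5% of all tested) and 1 higher (7.97%). Weak promoters in general moved down more often: 39 of the 40 members lay below the median tested promoter (a mean percentile of 90.0), where 19 were called lower (48.7%, against 25.2% of all tested promoters below it). The 1 member above it, Kcnn1, was not called lower (7.47% of all tested promoters above it). When the deepest 2 libraries at 37 °C were left out together, 6 members were lower (15.0%, against 8.25% of all tested) and 0 higher (4.47%).

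The largest differences were at voltage-gated genes. Kcnc1, a Kv3 channel of fast-firing neurons, had percentiles of 50.7, 49.0, 44.3 and 52.8 at 37 °C and 13.0, 6.24, 28.0 and 10.96 at 39 °C, a difference of -2.28 ± 0.46 (SE) in log2 odds (limma, adjusted p = 0.0063). Kcns2, a silent subunit that joins Kv2 channels, had 44.1, 43.0, 48.2 and 50.3 at 37 °C and 10.9, 21.2, 19.7 and 9.28 at 39 °C, a difference of -1.92 ± 0.36 (adjusted p = 0.00449). The groups were far apart at both genes, and with ranks among promoters alone the differences were -1.88 and -1.22, which did not pass 0.05 (adjusted p = 0.0569 and 0.112). Without the 2 deepest libraries at 37 °C, Kcnc1 lost its call (adjusted p = 0.0641) and Kcns2 kept it (adjusted p = 0.0473). The Kv3 genes Kcnc2 and Kcnc4 did not pass the test (differences of -0.64 and -2.03, adjusted p = 0.242 and 0.168).

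Other voltage-gated genes past the threshold had smaller differences. Kcng3, a silent subunit, had 51.1, 47.1, 41.2 and 48.4 at 37 °C and 20.9, 23.7, 32.7 and 14.3 at 39 °C (difference -1.20 ± 0.28; -0.26 with ranks among promoters, adjusted p = 0.581). Kcnd1, an A-type Kv4 channel, had 46.8, 42.4, 29.3 and 44.4 at 37 °C and 21.8, 19.4, 19.7 and 12.7 at 39 °C (difference -1.19 ± 0.31), and with ranks among promoters it stood at 0.03 (adjusted p = 0.959). Kcnh6, an ERG channel, had 50.1, 51.8, 55.1 and 58.6 at 37 °C and 32.3, 27.6, 34.8 and 28.8 at 39 °C (difference -0.97 ± 0.16; -0.25 with ranks among promoters, adjusted p = 0.578). The groups did not overlap at any of these genes. Without the 2 deepest libraries at 37 °C, Kcng3 and Kcnd1 lost their calls (adjusted p = 0.091 and 0.212) and Kcnh6 kept it (adjusted p = 0.0169). With lists of equal length, Kcng3 and Kcnh6 were not called (adjusted p = 0.15 and 0.0747). Kcnf1, Kcna7, Kcnh1, Kcnh2 and Kcnh4 were also called lower, with differences from -0.88 at Kcnh1 to -0.25 at Kcnh2, and with ranks among promoters Kcna7 turned to 0.126, Kcnh1, Kcnh2 and Kcnh4 stood at -0.34, -0.05 and -0.01 with no call (adjusted p = 0.169, 0.756 and 0.946), and Kcnf1 kept its call. In all, 12 of the 17 open voltage-gated promoters were lower, where 25.2% of all tested promoters below the median were, and 2 with ranks among promoters.

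Among auxiliary subunits, 3 of 7 open promoters were lower. Kcne3, a single-pass subunit that partners Kcnq1 in epithelia, had 48.3, 38.7, 34.8 and 47.2 at 37 °C and 17.0, 12.9, 18.7 and 9.28 at 39 °C (difference -1.73 ± 0.35, adjusted p = 0.00607; -0.83 and 0.0973 with ranks among promoters). Without the 2 deepest libraries at 37 °C it stood at -1.49 (adjusted p = 0.131). Kcnab3 had 93.4, 94.1, 94 and 94.8 at 37 °C and 83.8, 91.1, 82.1 and 83.5 at 39 °C (difference -0.996 ± 0.23, adjusted p = 0.0108; -1.39 with ranks among promoters). The call was lost with peaks up to 5 kb from a start (-0.162, adjusted p = 0.357). The merged region around it, which also reached the starts of Cntrob and Trappc1, had 90.3, 91.1, 93.0 and 90.9 at 39 °C and did not pass the region test described further on (adjusted p = 0.989). Kcnip2 was the third (-0.71), and not with ranks among promoters (-0.15, adjusted p = 0.43). Among two-pore genes 3 of 8 were lower (Kcnk2, Kcnk4 and Kcnk7). Kcnk2 turned to 0.469 and was called higher with peaks up to 5 kb from a start (adjusted p = 0.0322), and with ranks among promoters Kcnk2 and Kcnk4 lost their calls (adjusted p = 0.245 and 0.846). Kcnk7 had 76.9, 74.3, 72.2 and 78.4 at 37 °C and 59.6, 56.1, 58.2 and 46.2 at 39 °C (difference -0.90 ± 0.10, adjusted p = 0.000283; 0.000514 with ranks among promoters). With peaks up to 5 kb from a start, Kcnk4 stood at -0.107 (adjusted p = 0.816) and Kcnk7 at -2.92, further from 0 but no longer past the threshold (adjusted p = 0.176). Among ion-activated genes only Kcnn3 of 5 was called lower (-0.74), and not with ranks among promoters (-0.43, adjusted p = 0.0589).

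Kcnj4, an inward rectifier of forebrain neurons, was the 1 promoter called higher. It had percentiles of 80.3, 80.1, 79.2 and 81.1 at 37 °C and 82.6, 78.5, 80.8 and 82.7 at 39 °C, so the groups overlapped before centring, and the centred difference was 0.52 ± 0.12 (adjusted p = 0.00968; 0.91 and 0.00711 with ranks among promoters). The call was lost without centring (0.095, adjusted p = 0.505) and without the 2 deepest libraries at 37 °C (0.48, adjusted p = 0.0533). Kcnt1 passed only with ranks among promoters (29.1, 17.5, 24.1 and 39.1 at 37 °C and 38.8, 24.5, 39.0 and 22.1 at 39 °C, adjusted p = 0.199 in the whole list and 0.00193 among promoters), and its groups overlapped. The 2 broad intronic regions of Kcnj4, of 6225 and 4704 bp, were called in all 4 libraries at 37 °C and in none at 39 °C. Their mean percentiles were 23.1 and 22.6, low in lists that were longer at 37 °C. With lists of equal length Kcnj4 was not among the genes with more body peaks in every library at 37 °C.

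**Figure D3:**
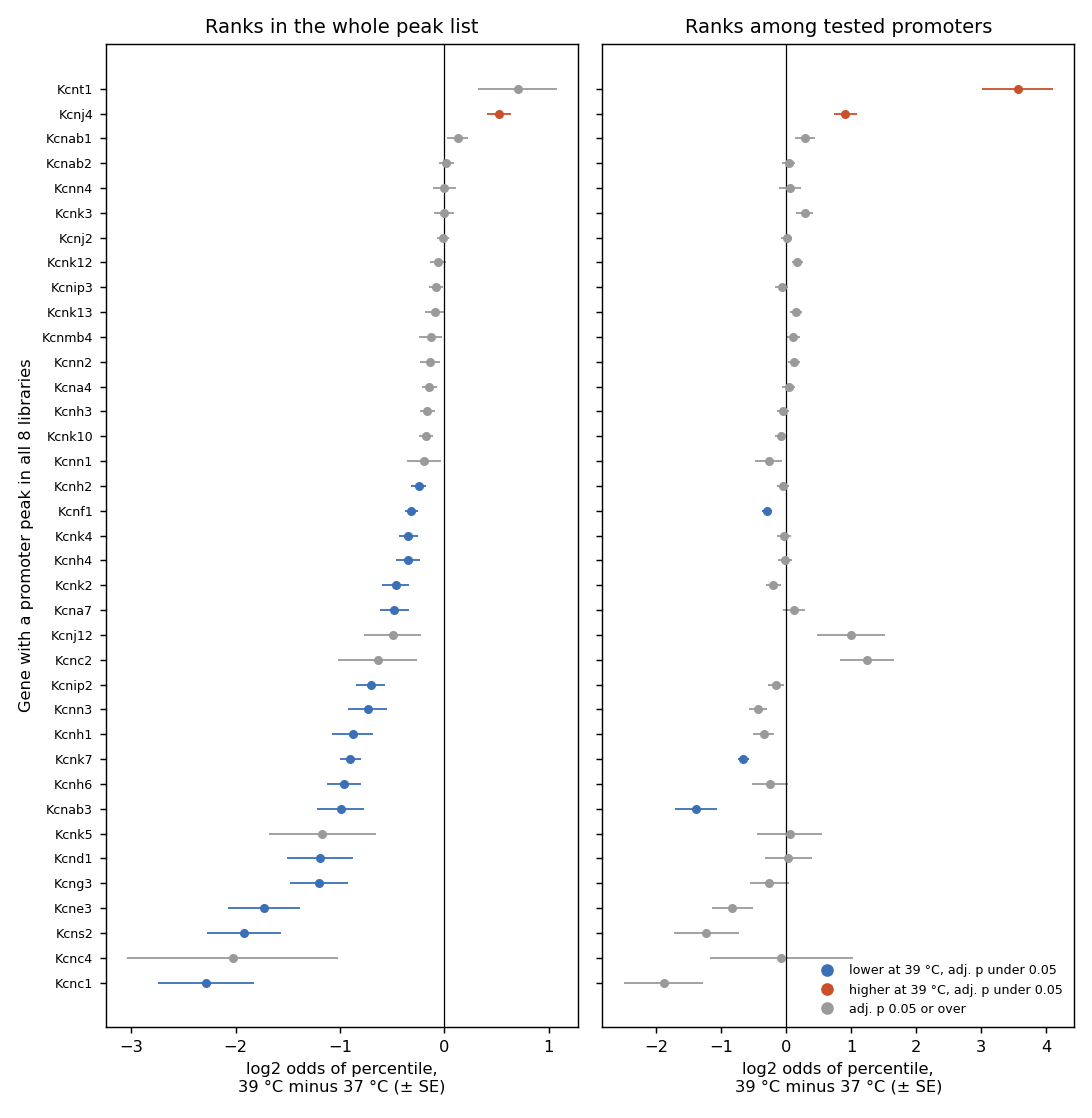
Difference in promoter height between 39 °C and 37 °C (log2 odds of the percentile, point ± SE) for 37 of the 40 genes with a peak in all 8 libraries, with heights ranked in the whole list (left) or among the tested promoters (right), blue where lower and red where higher at adjusted p under 0.05. On the left 17 points are blue and 1 is red, and on the right 3 are blue and 2 are red.

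The most lowered promoters past the threshold, Kcnc1 and Kcns2, held the same rare arrangement of letters. RE1 is the element bound by the repressor REST, which holds many neuronal genes down outside neurons, and its left and right parts, CAGCACC and GGACAGC, usually stand in that order with 2 bases between them. Windows of 201 bp around peak summits were searched on both strands. The usual order (CAGCACCNNGGACAGC) was found in 0 of 271 potassium channel regions and 0.0767% of all 84777 regions. An arrangement with one part inverted, so that the parts lie on opposite strands (GCTGTCCNNNCAGCACC), was looked for after the printed sequences had been seen. It was found in 3 of the 271 (1.11%) and in 11 of all regions (0.013%). Kcnc1 and Kcns2, from which it was taken, are among both, so these shares and the spacing of 3 bases are no separate evidence. No other spacing from 0 to 11 bases in the inverted arrangement was found in more than 2 regions. Without regard to peaks, 12 of 21938 coding genes (0.0547%) held the inverted arrangement within 1 kb of a start. Of these, 3 were Kcnc1, Kcns2 and Kcnk3, so this count too includes the genes from which the arrangement was taken. The usual order was found in 61 coding genes (0.278%), among them Kcnh4, Kcnk12 and Kcnt1. The summits of the 3 promoters are shown with these parts, and SP/KLF boxes (GGGCGGG) where present, in capitals. They lie at chr7:46396713-46396913, chr15:34837377-34837577 and chr5:30588077-30588277 in exons (GRCm38, plus strand).
Kcnc1: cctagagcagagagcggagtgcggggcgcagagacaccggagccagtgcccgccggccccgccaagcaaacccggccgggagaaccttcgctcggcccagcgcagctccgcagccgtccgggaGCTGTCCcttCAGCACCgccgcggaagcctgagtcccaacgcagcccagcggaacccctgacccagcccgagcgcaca
Kcns2: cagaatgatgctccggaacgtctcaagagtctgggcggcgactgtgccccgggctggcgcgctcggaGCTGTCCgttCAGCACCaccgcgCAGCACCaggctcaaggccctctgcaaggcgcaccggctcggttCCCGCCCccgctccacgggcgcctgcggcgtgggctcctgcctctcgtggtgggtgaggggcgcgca
Kcnk3: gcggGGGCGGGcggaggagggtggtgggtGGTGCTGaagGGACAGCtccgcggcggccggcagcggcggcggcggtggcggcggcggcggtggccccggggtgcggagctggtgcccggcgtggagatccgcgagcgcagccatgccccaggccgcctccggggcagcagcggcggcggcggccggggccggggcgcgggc

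Kcnk3, which encodes an acid-sensitive leak channel, did not share the difference. Its promoter had 69.1, 68.0, 71.6 and 71.7 at 37 °C and 65.4, 61.9, 67.9 and 58.5 at 39 °C, and its centred difference was -0.001 ± 0.096 (adjusted p = 0.994). The other regions with the inverted arrangement lay near few coding starts, those of Cacng3, Cplx2, Tmem145 and Zdhhc22. Of the 7 regions with the inverted arrangement and a peak in all 8 libraries, 5 were lower at 39 °C and 0 higher in the test on regions described next (3 and 0 with ranks among regions). Of 30 with the usual order 11 were lower and 1 higher (7 and 1 with ranks among regions), where 13.9% of all tested regions near a start and 26% of those away from one were lower. Kcnc1 and Kcns2, from which the inverted arrangement was taken, are among the 5, so the count is no separate evidence. A match is a run of letters and was not tested for binding.

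Peaks inside the genes were then counted. Peaks of the 8 lists were merged where they overlapped, and regions called in at least 2 libraries were kept. Of 84777 such regions, 271 lay in the body of a potassium channel gene or within 1 kb of its start, 76 at promoters and 195 elsewhere. They fell in 69 members, and 25 members had none. Of the 271, 130 were called in all 8 libraries (48.0%, against 52.9% of all regions). Per library 244, 218, 206 and 253 were called at 37 °C and 192, 181, 198 and 144 at 39 °C, a mean of 85.0% and 66.0% of the 271, against 87.2% and 67.8% of all regions.

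Some genes with a closed promoter held open regions elsewhere. Among the 37 members with no promoter peak, 13 held a region (35.1%, against 18.8% of coding genes with no promoter peak, whose lengths were not matched). Kcnip1, a calcium-binding partner of Kv4 channels, had the most regions of any member, 19 over 364 kb, with 12 of them called in all 8 libraries and none at a start. Its strongest region (chr11:33659466-33661562, in an intron) had 91.4, 89.7, 87.3 and 92.0 at 37 °C and 87.1, 89.2, 86.5 and 84.3 at 39 °C, a mean of 88.4 that equalled that of the Kcnj2 promoter. Kcnma1, the pore of the large-conductance calcium-activated channel, had 17 regions with 10 called in all 8, while its promoter region reached 10.4, 11.8 and 12.1 in 3 libraries at 37 °C and 8.89 in 1 at 39 °C. Kcnh1, Kcnq1 and Kcnab1 had 13 regions each, with 6 called in all 8. For its size, Kcnh2 (ERG1) was denser, with 8 regions over 32.0 kb.

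Away from promoters, the regions that passed the test were more often higher than lower at 39 °C. The same limma test, added after the data had been seen, was run on the 44861 regions called in all 8 libraries, of which 83 potassium channel regions lay over 1 kb from every coding start and 47 lay within 1 kb of one. Of the 83, 24 were higher at 39 °C (28.9%, against 20.2% of all such regions) and 11 lower (13.3%, against 26%). Of the 47, 2 were higher (4.26%, against 19%) and 17 lower (36.2%, against 13.9%). With ranks among the tested regions the 83 gave 28 higher (23.5% of all such regions) and 7 lower (23.5%), and the 47 gave 2 higher (11.3%) and 13 lower (17.4%). These directions are relative to the median region, which moved by -0.59 before centring. Without centring 1 of the 83 was higher (1.94%) and 43 lower (61.9%), and of the 47, 0 were higher (0.707%) and 39 lower (62.2%). The 24 higher regions lay in 12 genes and the 11 lower ones in 10, and regions of 1 gene are not independent of each other.

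**Figure D4:**
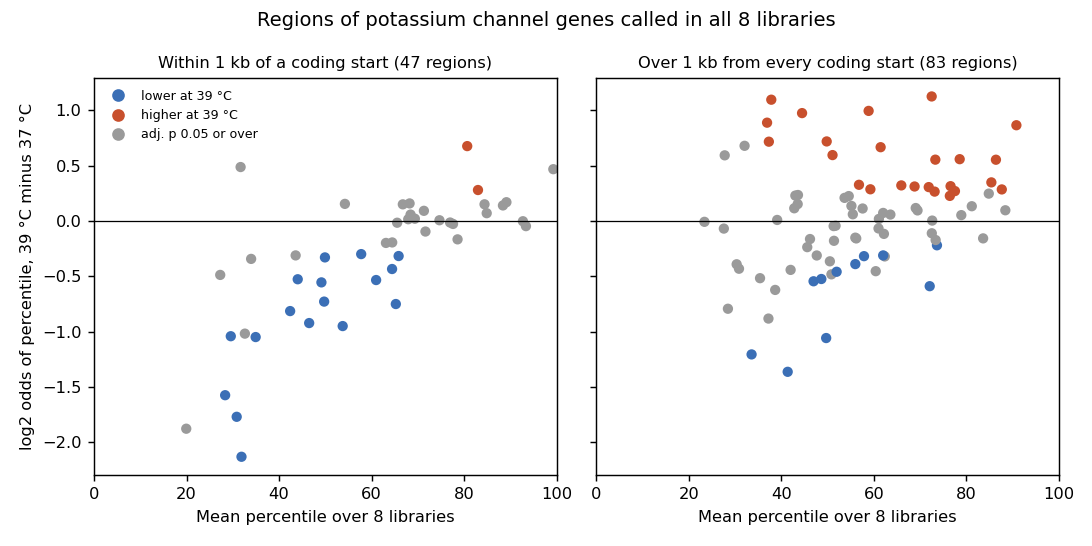
Difference in height between 39 °C and 37 °C (y axis, centred log2 odds of the percentile) against mean percentile (x axis) for the 130 potassium channel regions called in all 8 libraries, near (left, 47) or away from (right, 83) a coding start, blue where lower and red where higher at adjusted p under 0.05. On the left the coloured points are 17 blue and 2 red, and on the right 11 blue and 24 red.

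Kcnh1, which encodes the EAG1 channel, held both directions. Its promoter had 58.6, 59.5, 59.1 and 65.6 at 37 °C and 40.4, 41.7, 47.0 and 26.2 at 39 °C, with no overlap (difference in the region test -0.73 ± 0.16, adjusted p = 0.004). An intronic region 259 kb downstream (chr1:192449226-192451903) had 68.9, 65.9, 67.0 and 73.3 at 37 °C and 77.2, 77.9, 77.6 and 72.3 at 39 °C, with a difference of 1.12 ± 0.078 (adjusted p = 6.64e-06). This was the smallest adjusted p among the 130 regions, and 3 of its 4 values at 39 °C lay above all 4 at 37 °C. In all, 4 of the 5 Kcnh1 regions away from the promoter that were tested were higher and 0 lower. Kcnk10 was the other gene with a lower region near a start and a higher one away from it. The difference between promoter and intron was not itself tested.

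Kcnip1, with no promoter peak, had 3 higher and 0 lower of 12. The region at chr11:33748456-33749765 had 58.3, 52.2, 50.4 and 61.0 at 37 °C and 66.7, 64.9, 65.0 and 52.6 at 39 °C, so the groups overlapped through 1 library, and the difference was 0.99 ± 0.098 (adjusted p = 3.56e-05). In Kcnk5, an alkaline-activated leak channel, a region 19.0 kb into the gene (chr14:20161432-20166818) had 90.8, 89.7, 87.8 and 91.9 at 37 °C and 91.1, 93.9, 92.2 and 89.2 at 39 °C (difference 0.86 ± 0.12, adjusted p = 0.000296). Kcnn2 had 3 higher of 4, Kcnv2, Kcnk10 and Kcnk5 had 2 of 2, and Kcnab1, Kcnma1 and Kcnq1 had regions in both directions.

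The temperatures were far apart at 3 of the lower regions away from promoters. In Kcnk12, a silent two-pore channel, an exonic region (chr17:87745399-87746790) had 57.5, 52.9, 57.5 and 59.3 at 37 °C and 27.9, 29.0, 31.2 and 16.0 at 39 °C (difference -1.36 ± 0.19, adjusted p = 0.000246). In Kcnj12, a region of 5181 bp (chr11:61059367-61064547) had 81.6, 79.4, 76.9 and 82.3 at 37 °C and 64.5, 65.6, 68.2 and 58.2 at 39 °C (difference -0.59 ± 0.07, adjusted p = 0.000121). In Kcnab1, a region 25.8 kb into the gene (chr3:65134822-65135674) had 67.3, 59.0, 56.7 and 70.1 at 37 °C and 41.8, 39.5, 38.5 and 24.8 at 39 °C. The groups did not overlap at any of the 3.

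The summits of the most significant higher regions in 2 genes, and of the Kcnk12 region, are shown so that their letters can be set beside the values. Capitals mark TEAD boxes (CATTCC), the p53 decamer, and in Kcnk12 the right RE1 part GGACAGC overlapping an E-box (CAGCTG). The windows are chr1:192450108-192450308, chr11:33748871-33749071 and chr17:87745981-87746181 (GRCm38, plus strand).
Kcnh1: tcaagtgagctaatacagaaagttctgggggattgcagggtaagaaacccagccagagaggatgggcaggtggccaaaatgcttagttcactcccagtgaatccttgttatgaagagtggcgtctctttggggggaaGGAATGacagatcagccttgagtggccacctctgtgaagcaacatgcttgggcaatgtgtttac
Kcnip1: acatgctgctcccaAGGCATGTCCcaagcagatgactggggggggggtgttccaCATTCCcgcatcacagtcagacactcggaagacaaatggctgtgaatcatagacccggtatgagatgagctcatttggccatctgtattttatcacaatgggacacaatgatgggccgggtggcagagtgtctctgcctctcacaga
Kcnk12: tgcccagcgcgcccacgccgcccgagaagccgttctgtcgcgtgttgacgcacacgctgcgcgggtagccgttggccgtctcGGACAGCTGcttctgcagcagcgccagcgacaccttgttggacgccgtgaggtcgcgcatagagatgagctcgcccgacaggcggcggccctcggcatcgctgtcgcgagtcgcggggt

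**Figure D5:**
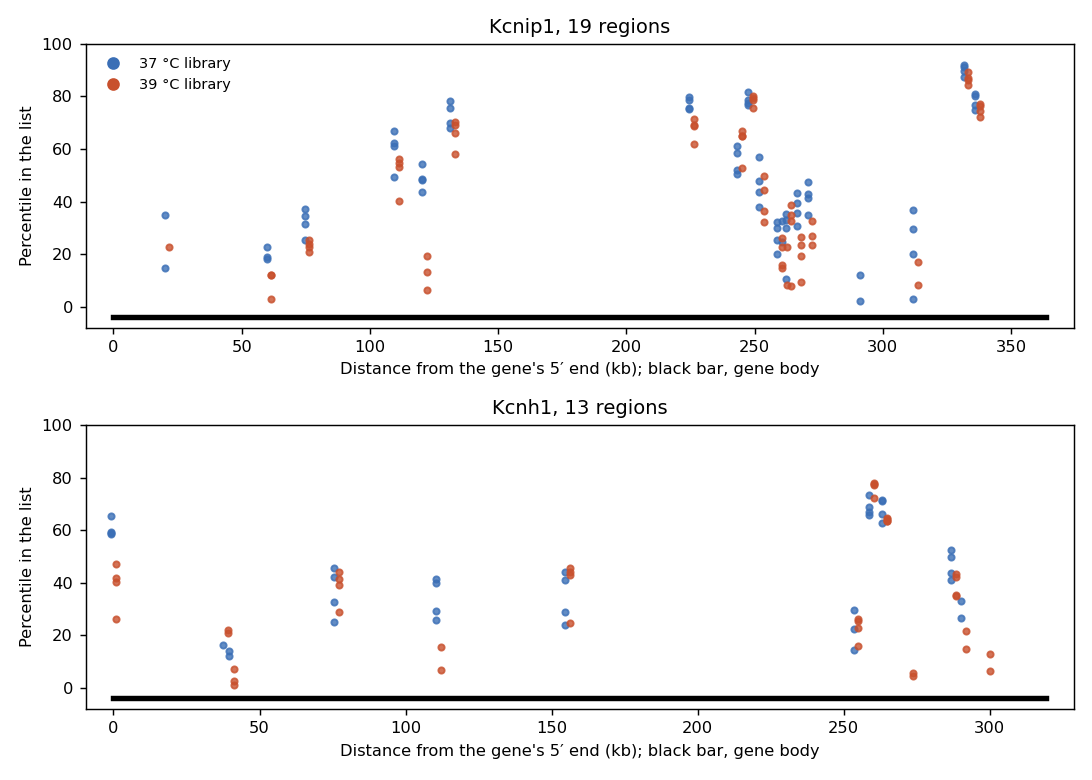
Percentile of every merged region (y axis) along Kcnip1 and Kcnh1 (x axis, distance from the 5′ end of the gene in kb, black bar the gene body), 1 point for each library with a peak, blue for 37 °C and red for 39 °C with a small sideways shift. In Kcnh1 the red points lie below the blue at the start and mostly above them near 259 kb, and Kcnip1 has no region at its start.

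Regions called at one temperature alone were few. Of the 271, 14 were called in all 4 libraries at 37 °C and none at 39 °C (5.17%, against 6.04% of all regions), and 0 the other way (0.314%). With lists of equal length the counts were 3 and 2 of 171 (2.67% and 1.92% of all regions). The 14 lay in Kcnb2, Kcne1, Kcnh2, Kcnip2 (3 regions), Kcnip3, Kcnj4 (2), Kcnj10, Kcnj12, Kcnk15 and Kcnn1 (2). The highest was in an exon of Kcnb2, a Kv2 delayed rectifier whose promoter was closed, with 61.3, 56.0, 53.9 and 64.6 at 37 °C. The next was in an intron of Kcne1, the minK subunit, with 35.8, 37.3, 35.8 and 55.7 at 37 °C. The other 12 lay lower. Kcnip3 had 32.1, 24.9, 21.1 and 33.0, and Kcnj10, the main glial inward rectifier, had 26.2, 27.0, 17.8 and 30.0. Kcnh2 had 19.8, 22.5, 22.6 and 34.0, and Kcnj12 had 20.4, 14.7, 14.2 and 27.8. The 2 regions of Kcnj4 had 19.8, 21.4, 19.5 and 31.6, and 23.7, 10.3, 25.5 and 31.1. The regions of Kcnip2, Kcnn1 and Kcnk15 had means from 8.90 to 16.4 at 37 °C. Intronic regions of Kcnq5, Kcnt2, Kcnmb2 and Kcnn3 were called in 3 libraries at 39 °C and 0 at 37 °C, at 3.86 to 32.9. The windows of the Kcnb2 and Kcne1 regions (chr1:15719693-15719893 and chr16:92349084-92349284) are given because these regions carried the contrast, with an AP-1 site (TGACTCA or TGAGTCA) and NFY boxes (CCAAT) in capitals at Kcne1 and none of the searched letters at Kcnb2.
Kcnb2: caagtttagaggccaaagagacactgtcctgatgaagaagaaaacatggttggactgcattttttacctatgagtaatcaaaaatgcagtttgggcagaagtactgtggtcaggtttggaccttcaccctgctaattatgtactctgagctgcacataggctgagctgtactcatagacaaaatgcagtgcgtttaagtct
Kcne1: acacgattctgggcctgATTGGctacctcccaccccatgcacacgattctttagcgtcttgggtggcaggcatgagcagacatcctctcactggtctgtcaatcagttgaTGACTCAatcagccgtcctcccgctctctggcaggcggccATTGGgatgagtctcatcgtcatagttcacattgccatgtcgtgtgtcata

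The number of peaks in each gene body was compared over libraries. Of the 71 members with a body peak in any library, 11 had more in every library at 37 °C than in any at 39 °C (15.5%, against 13.3% of coding genes) and 0 the reverse (0.349%). The 11 were Kcnb2, Kcne1, Kcnh2, Kcnip2, Kcnj4, Kcnj10, Kcnj12, Kcnk3, Kcnk4, Kcnk15 and Kcnn1. Kcnn1 had 7, 7, 10 and 8 peaks at 37 °C and 3, 2, 3 and 2 at 39 °C, and Kcnj4 had 6, 9, 8 and 5 against 2, 1, 2 and 3. These were the largest differences in mean among the members. The exact permutation test of 4 against 4 cannot go below p = 0.0286, which no adjustment over all genes would pass. With lists of equal length 4 of 63 members were higher at 37 °C (Kcnb2, Kcne1, Kcnh4 and Kcnn1, against 3.82% of coding genes) and 1 at 39 °C (Kcnmb2, against 2.46%).

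The sequence of the promoters was described by its CpG content and by short letter patterns, with no test. A promoter was called CpG-rich when the 1001 bp around the 5′ end of the gene had at least 50% GC and an observed over expected CpG of at least 0.6. This held for 35 of 94 members (37.2%, against 44.4% of coding genes). Open still means a peak near any annotated start, so the scored sequence and the peak can lie at different starts. Of CpG-rich promoters, 54.3% of those of potassium channels were open in all 8 libraries, against 92.0% in all coding genes. Among promoters closed in all 8 libraries, 8 of 37 members (21.6%) were CpG-rich, against 5.98% of coding genes. Away from CpG, the letters searched at the 271 summits were found about as often as in all regions for AP-1 (TGACTCA or TGAGTCA, 22.1% against 24.2%), TEAD (16.2% against 16.9%), RUNX (TGTGGTT, 9.96% against 9.92%), NFY (21.4% against 22.6%), the E-box (16.6% against 15.3%) and the p53 decamer (7.38% against 7.28%). SP/KLF boxes (14.8% against 9.2%) and the left RE1 part (13.3% against 5.55%) were found at higher shares, the right part stood at 7.38% against 5.12%, and the cyclic AMP element TGACGTCA was found in 1 region (0.369% against 0.616%).

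Genes whose products work with potassium channels were listed separately. Of 37 such genes, 23 were open in all 8 libraries, 5 in part and 9 in none, and in the promoter test 5 of the 23 were lower at 39 °C and 2 higher, near the shares of all coding genes given above (59.9% open in all 8, 16.3% lower and 7.71% higher). All 4 HCN channels, which carry the pacemaker current, were open. Hcn3 had 67.5, 62.2, 65.3 and 68.4 at 37 °C and 53.8, 44.9, 56.6 and 42.4 at 39 °C, and was lower (difference -0.55 ± 0.13), a call lost with ranks among promoters (-0.14, adjusted p = 0.525), where Hcn4 was called higher (1.29, adjusted p = 0.00283). The Kv4 partners Dpp6 and Dpp10 were closed, as was Abcc9, and Abcc8, the partner of Kcnj11, was called in 3 libraries at 37 °C and 2 at 39 °C. Of 4 gamma subunits of the large-conductance channel, Lrrc26 was open and the others were closed. All 3 lysosomal and counter-ion channel genes (Tmem175, Tmem38a, Tmem38b) and 7 of 9 sodium pump and cotransporter genes were open. Slc12a2, the sodium-potassium-chloride cotransporter, was higher at 39 °C (difference 0.78 ± 0.11), and Slc12a7 and Atp1b1 were among the lower ones.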

How the data were processed

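ATAC-seq peak lists of 8 SN4741 libraries, 4 at each temperature by their labels, were analysed. Per the file headers and the submitters' processing notes, the authors aligned read pairs to mm10 (GRCm38) with Bowtie2 2.4.1, used SAMtools 1.15.1, Picard 2.26.11 and bedtools 2.30.0, and called peaks in each library with MACS3 3.0.0a7 at a q cutoff of 0.05, without a control or a local background. The deposited lists give the pileup signal at the summit, the fold enrichment ratio, and the −log10 p-value and −log10 q-value. They were not scaled for depth, and a q-value rises with depth, so each −log10 q was turned into its percentile within its list.

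A promoter peak overlapped the 1000 bp on either side of any annotated start, and the highest was kept. Heights of promoters called in all 8 libraries were compared with limma 3.58.1 (R 4.3.3) on the log2 odds of the percentile (offset 0.5 rank), minus the library's median over coding promoters. On simulated heights for 13145 promoters, this test recovered 192 of 200 genes shifted by 2 log2 odds, with 4 false calls. The simulated noise was normal and independent between promoters and libraries. Most called members differed by less than 2, so the simulation does not show how often such differences are found or falsely called. Peaks sharing at least 1 bp were merged. Tables were handled with Python 3.11.15, numpy 2.4.6 and pandas 2.3.3. Sequence came from the GRCm38 reference. In all, 10 letter patterns were searched.

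The members, gene lists and named genes were chosen with earlier results of these data known, and the test on regions and the RE1 arrangements were added after the data had been seen. Values per library were given for promoters differing by 3 or more libraries, the 10 largest differences past the threshold, the 5 highest promoters, and regions at 1 temperature alone. Kcn genes were compared without any list-wise test. A few genes are counted in the totals and not reported by name or drawn.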

Additional observations from a re-analysis of the deposited data

Results flagged for a closer look

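A single library stood apart within its temperature at 4 promoters, where the gap from the extreme value to the nearest one, divided by the range of the 4, passed Dixon's 95% critical value for 4 samples. Of 88 groups of 4 examined, chance alone would give about 1 in 20, or 4.4. At 37 °C, the Kcnh1 promoter reached a percentile of 65.6 in library 4, with the next at 59.5 (ratio 0.872), the Kcnq5 promoter stood at 15.4 in library 4, with the nearest at 17.4 (ratio 0.837), and the Kcnk6 promoter stood at 32.7 in library 3, with the nearest at 69.9 (ratio 0.9). The Kcnn3 promoter stood at 38.7 in library 4 at 39 °C, with the nearest at 58.2 (ratio 0.928). All 4 percentiles at 37 °C lay above all 4 at 39 °C for Kcnh1 and Kcnn3.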

How the results depend on the processing

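The counts of promoters open at both temperatures and closed in all libraries stayed within 1.5 times under every alternative run, at 42 to 46 and 37 to 38 when libraries were left out in turn. The 0 promoters called in 4 libraries against 0 became 2 with peaks of −log10 q of at least 5, 1 with equal numbers of peaks, 1 at the 5′ end of the gene record alone, and 0 to 2 without single libraries. The promoter test called 20 (19 lower, 1 higher), and 9 (8 lower) with equal numbers of peaks, 36 (36 lower, 0 higher) without centring, 6 (4 lower, 2 higher) with ranks among promoters, and 6 (6 lower, 0 higher) without the 2 libraries deeper than the rest, both at 37 °C. Within 5 kb of a start 2 were higher. Leaving libraries out gave 13 to 18 (12 to 17 lower, 1 higher), lowest without the fourth library at 37 °C. The sign turned for Kcnk2 (0.469 within 5 kb) and, with ranks among promoters, for Kcna7 (0.126) and Kcnd1 (0.0342). The cause was not tested.

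Regions at 37 °C alone numbered 14, 3 with equal numbers of peaks and 14 to 24 without single libraries (24 without the third at 37 °C). Those at 39 °C alone numbered 0, 2 with equal numbers of peaks, 1 with 5 kb upstream added, and 0 to 4 (4 without the fourth at 39 °C). Away from starts, lower regions numbered 11, 7 with ranks among regions, 43 without centring, 6 in the shallower libraries and 7 to 14 without single libraries (7 without the second at 37 °C), and higher regions 24, 1 without centring and 16 to 29. Near starts, lower regions numbered 17, 10 with equal numbers of peaks, 11 in the shallower libraries, 39 without centring and 13 to 16, and higher regions 2, 0 without centring, 0 in the shallower libraries and 1 to 3 (1 without any one of the libraries 1, 2 or 4 at 37 °C or 2 or 3 at 39 °C). The body count of 11, all higher at 37 °C, became 5 with equal numbers of peaks (4 higher at 37 °C, 1 at 39 °C), and 11 to 16 in either direction without single libraries. Replicate numbers did not pair the libraries (correlations of same-numbered deviations 0.218, -0.113, 0.212 and -0.196). With the replicate block the promoter test called 15 (14 lower, 1 higher), regions away from starts 9 lower and 20 higher, those near starts 15 and 2, and the body count was 13. In all, 134 summary comparisons stayed and 41 moved, and of those on single genes 195 stayed, 65 lost their call and 3 turned sign. The 2 deepest libraries were both at 37 °C, so depth and temperature can be told apart only among the other 6.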
